A study of Rattus norvegicus with 3 samples.

Results

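The genes of heterotrimeric G proteins, of the RGS proteins that switch them off and of the enzymes that make and break cyclic nucleotides were measured in motor cortex of 3 male Sprague-Dawley rats. All 3, numbered 12, 24-4 and 33, had cerebral ischemia and reperfusion and received electroacupuncture at GB20 (Fengchi), so they form 1 group, with 1 library per animal. A time of 8 weeks is given without its starting point, and no type, side or duration of ischemia and no age. Other treatments and untreated animals were not analysed here, and nothing below describes what ischemia or electroacupuncture did. Members were taken by gene name, with symbols that start with Gna, Gnb, Gng, Rgs, Adcy or Pde in a fixed pattern, and every matching row was kept. This gave 92 rows with 89 names, of 30957 rows in all.

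A receptor coupled to a G protein loads GTP onto the alpha subunit, which then parts from the beta-gamma dimer, and both act on enzymes and channels. Alpha subunits of the Gs kind switch adenylyl cyclases on and those of the Gi/o kind hold most of them back, while Gq subunits act on phospholipase C and G12 subunits form a further kind. RGS proteins speed the hydrolysis of GTP on alpha subunits, adenylyl cyclases make cAMP, and phosphodiesterases degrade cAMP, cGMP or both. In cortex this machinery carries the responses of neurons and glia to monoamines, acetylcholine, adenosine, glutamate and peptides.

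Promoter windows are shown for 4 members on which the results turn. Rgs4 and Rgs5 are neighbours on chromosome 13 that ran in different orders across the rats, Rgs7bp had the order of Rgs4, and Gnao1 had the highest mean of the alpha subunits. Each window is RefSeq sequence of assembly GRCr8, from 250 bases before the gene's start to 50 after it, read 5′ to 3′ on the gene's strand. Capitals mark the letters of the cAMP response element (TGACGTCA, or its core TGACG), the CCAAT box (CCAAT) and the TATA box (TATAAA), searched on both strands.
Rgs4, chr13:84475835-84476134, strand -: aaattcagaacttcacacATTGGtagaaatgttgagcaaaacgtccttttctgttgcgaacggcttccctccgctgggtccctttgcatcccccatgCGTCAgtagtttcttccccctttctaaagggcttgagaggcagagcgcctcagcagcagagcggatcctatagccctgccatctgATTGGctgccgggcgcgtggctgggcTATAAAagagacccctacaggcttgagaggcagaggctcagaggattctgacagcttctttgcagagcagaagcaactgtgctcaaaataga
Rgs5, chr13:84380827-84381126, strand +: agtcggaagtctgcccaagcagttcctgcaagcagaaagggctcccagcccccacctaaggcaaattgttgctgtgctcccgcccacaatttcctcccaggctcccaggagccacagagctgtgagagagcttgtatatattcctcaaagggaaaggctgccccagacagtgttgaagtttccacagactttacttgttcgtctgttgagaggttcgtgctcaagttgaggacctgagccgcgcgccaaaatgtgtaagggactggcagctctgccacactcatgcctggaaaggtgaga
Rgs7bp, chr2:37965204-37965503, strand -: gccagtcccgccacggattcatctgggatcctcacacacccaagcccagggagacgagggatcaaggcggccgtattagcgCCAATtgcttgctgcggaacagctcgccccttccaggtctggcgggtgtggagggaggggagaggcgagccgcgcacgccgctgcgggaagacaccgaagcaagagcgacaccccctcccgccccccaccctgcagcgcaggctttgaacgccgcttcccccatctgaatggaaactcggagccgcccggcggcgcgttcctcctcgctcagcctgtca
Gnao1, chr19:11198388-11198687, strand -: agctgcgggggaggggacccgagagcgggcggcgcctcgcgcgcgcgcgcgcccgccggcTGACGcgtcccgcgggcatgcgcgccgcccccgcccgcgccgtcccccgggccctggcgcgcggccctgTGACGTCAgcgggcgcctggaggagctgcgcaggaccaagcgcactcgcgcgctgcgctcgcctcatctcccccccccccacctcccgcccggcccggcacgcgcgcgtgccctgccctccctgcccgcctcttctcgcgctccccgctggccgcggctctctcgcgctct

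The full element TGACGTCA stood in the Gnao1 window, at bases 130 to 137 counted from the window's 5′ end. It was in 1 of the 79 member windows (1.27%), against 1.83% of all 33469 windows. The 79 windows came from 66 of the 89 names, and some names had several. The core, which lies within the full element, was in 19 member windows (24.1%, against 21.2% of all). Rgs4 had the core at bases 98 to 102, reversed CCAAT boxes at 19 to 23 and 183 to 187, and a TATA box at 209 to 214. Rgs7bp had a CCAAT box at 82 to 86, and the Rgs5 window had none of the marked letters. CCAAT boxes were in 22.8% of member windows, against 37.5% of all, and TATA boxes in 7.59%, against 14.2%. GC boxes (GGGCGG, both strands, not capitalised) were in 53.2%, against 33.1%. Such matches describe letters and are not binding sites.

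Values are FPKM, the fragments per kilobase of gene scaled to the library, so levels of different genes can be compared per length. Of the 92 rows, 76 had a mean FPKM of at least 1, 49 of at least 10 and 7 of at least 100, and 71 reached 1 in every rat. The 76 had a median of 14.8 in mean FPKM, against 10.5 over all 13754 genes of at least 1. Gng11, which encodes a gamma subunit, Rgs21, which encodes an R4 regulator known from taste cells, and Pde6a, which encodes a rod phosphodiesterase, were listed at 0 in all rats. In 5 other rows some rat was at 0. A listed 0 can be a failed estimate.

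The libraries were estimated at 15340000, 17240000 and 13010000 fragments in rats 12, 24-4 and 33. An FPKM of 1 at a length of 1 kb then corresponds to 15.3, 17.2 and 13.01 fragments, and a floor of 3 fragments to an FPKM of 0.196, 0.174 and 0.231, for counting error only. Mitochondrial transcripts took 26.6%, 14.4% and 20.9% of summed FPKM. Summed FPKM of markers in rats 12, 24-4 and 33 was 2021, 2126 and 1020.2 for glutamatergic neurons (7 of 7 measured) and 471, 518 and 264 for GABAergic neurons (6 of 6), both lowest in rat 33. It was 110.4, 192 and 324 for microglia (6 of 6), 5323, 6965 and 12114 for oligodendrocytes (6 of 6), 545, 636 and 731 for astrocytes (6 of 6) and 64.1, 56.3 and 124 for mural cells (6 of 6), each highest in rat 33. Endothelial markers (5 of 6) had 58.3, 85.5 and 78.2 and striatal markers (8 of 8) 158, 140.2 and 91.6. Choroid plexus markers (8 of 8) had 3375, 131 and 13378, and 6 of them passed the limma test described below. Red blood cell markers (4 of 4) had 441, 68.5 and 319. In bulk tissue, fewer cells of a type and less RNA per cell cannot be told apart.

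Message for alpha subunits came mostly from Gnao1, Gna12 and Gnai2. Gnao1, which encodes the Go subunit abundant in neurons, had 183, 143 and 148 FPKM in rats 12, 24-4 and 33, the order in which values are given throughout. Gna12, of the G12 kind, had 87.9, 175 and 184 FPKM. It was below Gnao1 in rat 12 and above it in the other rats. Gnai2, an inhibitory subunit found in many cell types, had 71.98, 118 and 147 FPKM, with its lowest value in rat 12 as well. Its relative Gnai1, common in brain, had 72.1, 53.3 and 80.1 FPKM. Gnai3, the third inhibitory form, had 16.4, 10.4 and 25.02 FPKM. Both were highest in rat 33 and lowest in rat 24-4. Gnaz, whose product is insensitive to pertussis toxin, had 30.8, 37.6 and 18.6 FPKM and was lowest in rat 33. The Gi/o sum was 374, 363 and 419.9, and it was 4.52, 3.34 and 4.24 times the Gs sum.

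The stimulatory subunit Gnas, which couples receptors to adenylyl cyclase, is in 2 rows that overlap on 1 strand of chromosome 3. How fragments were divided between them is not known, so both levels are uncertain. The higher row (172385672 to 172434613, on Rnor_6.0 as all gene positions here) had 67.5, 88.5 and 87.7 FPKM. The lower row (172374957 to 172428483) had 8.75, 11.3 and 4.88 FPKM. Gnal, the form of olfactory and striatal neurons, had 6.58, 8.99 and 6.51 FPKM. All 3 stimulatory rows were highest in rat 24-4 in the deposited FPKM. With mitochondrial transcripts left out, the higher Gnas row was highest in rat 33, at 91.99, 103 and 111.

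Among Gq subunits, which activate phospholipase C, Gnaq had 56.1, 33.7 and 37.2 FPKM. Gna11, its close relative, had 34.3, 52.4 and 32.3 FPKM, so that Gnaq was the higher in rats 12 and 33 and Gna11 in rat 24-4. Gna14 had 0.953, 3.97 and 2.67 FPKM. Gna15, known from blood cells, had 1.05, 1.80 and 3.05 FPKM, with its highest value in rat 33. Gna13, the other G12 subunit, had 9.65, 9.13 and 17.5 FPKM. Gna12 overlaps the gene Iqce on the same strand, and its level is uncertain to that extent. The sensory subunits lay lowest. Gnat1, of rods, had 0.240, 0.240 and 0.177 FPKM, and overlaps Sema3f. Gnat2, of cones, had 0.171, 0.0760 and 1.41 FPKM, above 1 in rat 33 alone. Gnat3, of taste cells, was listed at 0, 0.104 and 0.

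Gnb1 and Gnb2 supplied most of the beta subunit message. Gnb1 had 244, 246 and 177 FPKM, which is 52.9% ± 4.75 of the beta sum (SD, n = 3 rats, as for every ± here). Gnb2 had 114, 184 and 130.5 FPKM, or 33.9% ± 5.77. Both form dimers with most gamma subunits. Gnb5, which pairs with R7 regulators in place of a gamma subunit, had 47.1, 52.1 and 28.4 FPKM. Gnb4 had 11.6, 7.76 and 16.6 FPKM, highest in rat 33. Gnb3, known from cones, had 1.05, 0.320 and 0.0978 FPKM. The order Gnb1, Gnb2, Gnb5, Gnb4, Gnb3 was the same in every rat, in all 4 of its neighbouring pairs. In the other large classes, 8 of 16 neighbouring pairs of alpha subunits, 3 of 9 of gamma subunits, 3 of 18 of RGS genes, 5 of 9 of cyclases and 6 of 18 of phosphodiesterases kept their order in all rats.

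Gng3 led the gamma subunits, the small lipid-anchored partners of beta. Gng3, a neuronal gene, had 136, 208 and 109.7 FPKM, or 39.5% ± 9.75 of the gamma sum. Gng2 had 54.03, 46.3 and 72.3 FPKM. In rat 33 Gng3 was lowest and Gng2 highest. Gng10 had 41.8, 49.4 and 59.6 FPKM. Gng12 had 28.00, 33.4 and 57.7 FPKM. Both shared with Gng2 a highest value in rat 33. Gng7, which assembles with Gnal in striatum, had 21.8, 34.8 and 16.9 FPKM. Gng13, known from taste, olfactory and retinal cells, had 15.3, 21.4 and 8.89 FPKM. These were lowest in rat 33, as Gng3 was. Gng4 had 12.7, 11.2 and 6.60 FPKM. Gng8, known from olfactory and vomeronasal neurons, had 6.11, 9.69 and 16.7 FPKM, and ran opposite to Gng4.

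Gng5 is in 2 rows, and how fragments were shared between these copies is not known. The row on chromosome 2 had 7.25, 9.65 and 17.5 FPKM. The row on chromosome 1 (78546012 to 78546218), 207 bp long and inside Arhgap35 on the opposite strand, had 4.40, 8.12 and 12.99 FPKM. These correspond to 14, 29 and 35 fragments (within 0.05 of whole numbers), with 95% exact Poisson ranges 7.65 to 23.5, 19.4 to 41.6, and 24.4 to 48.7. The ranges cover counting error in each library and not the spread between animals. Both rows were highest in rat 33. The class sums gave ratios of alpha over beta of 1.55, 1.53 and 2.26, and of beta over gamma of 1.28, 1.13 and 0.930. Rat 33 had the highest value of the first ratio and the lowest of the other.

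**Figure D1:**
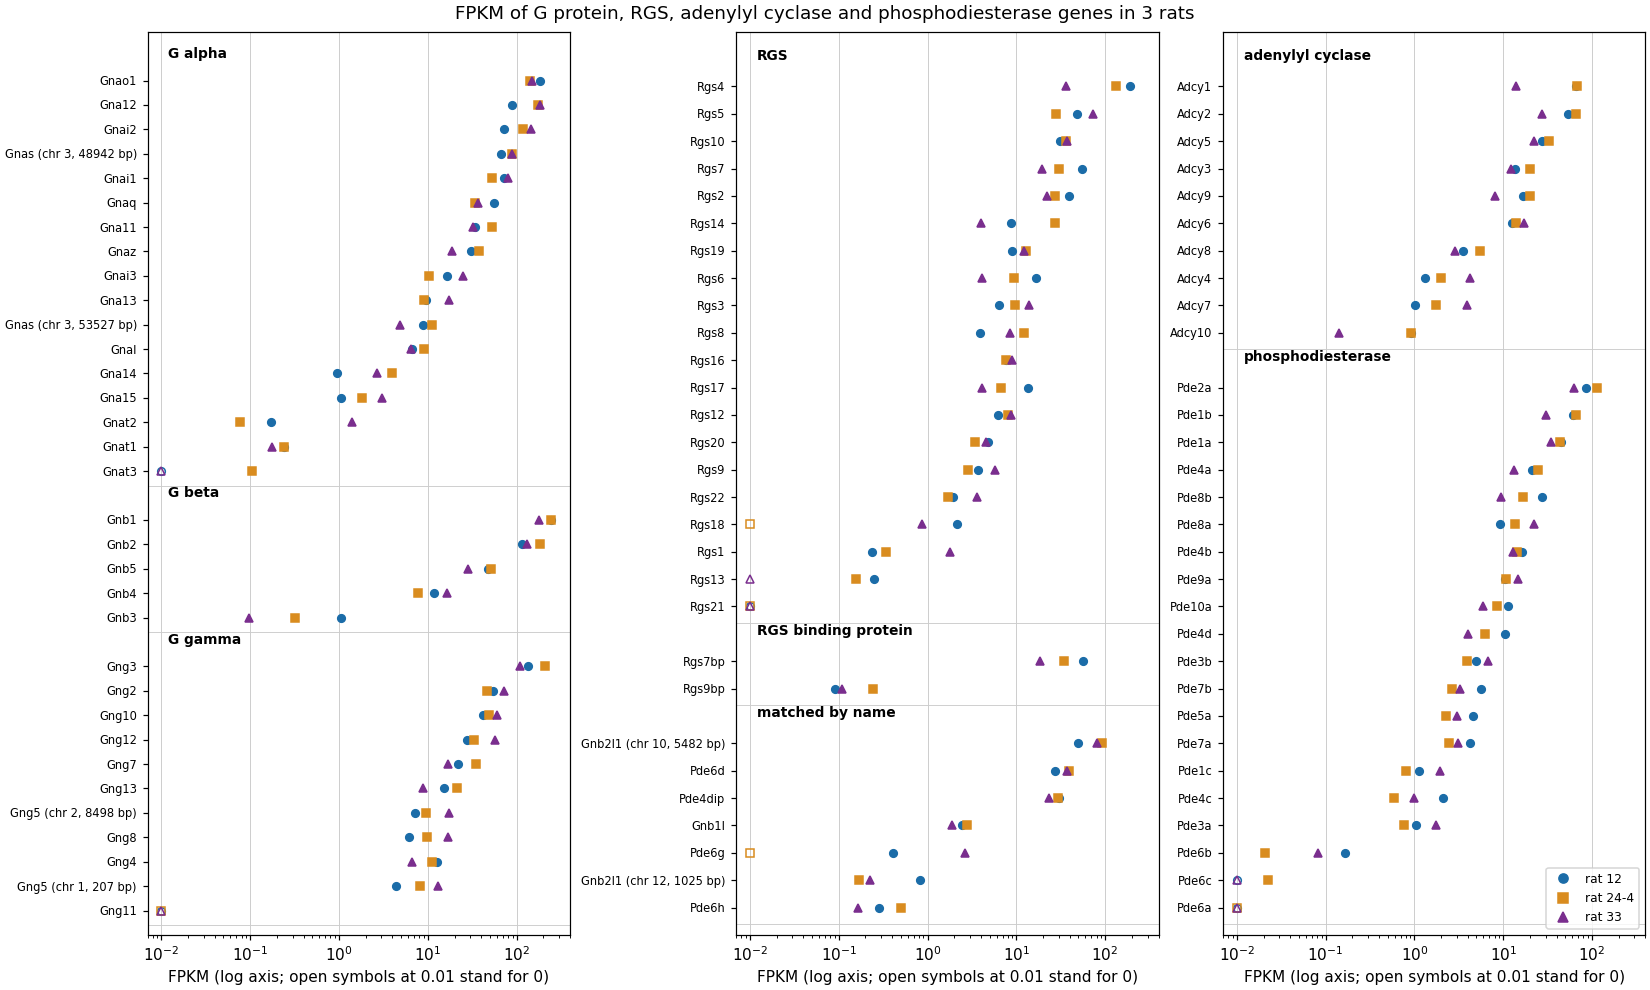
FPKM of all 92 rows on a log axis, with 1 symbol per rat, rows sorted by mean within each class and open symbols at 0.01 for a listed 0. Gnb1, Gnao1, Gng3, Gna12, Gnb2, Rgs4 and Gnai2 are the 7 highest, and the Gnat and most Pde6 genes lie near or at 0.

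**Figure D2:**
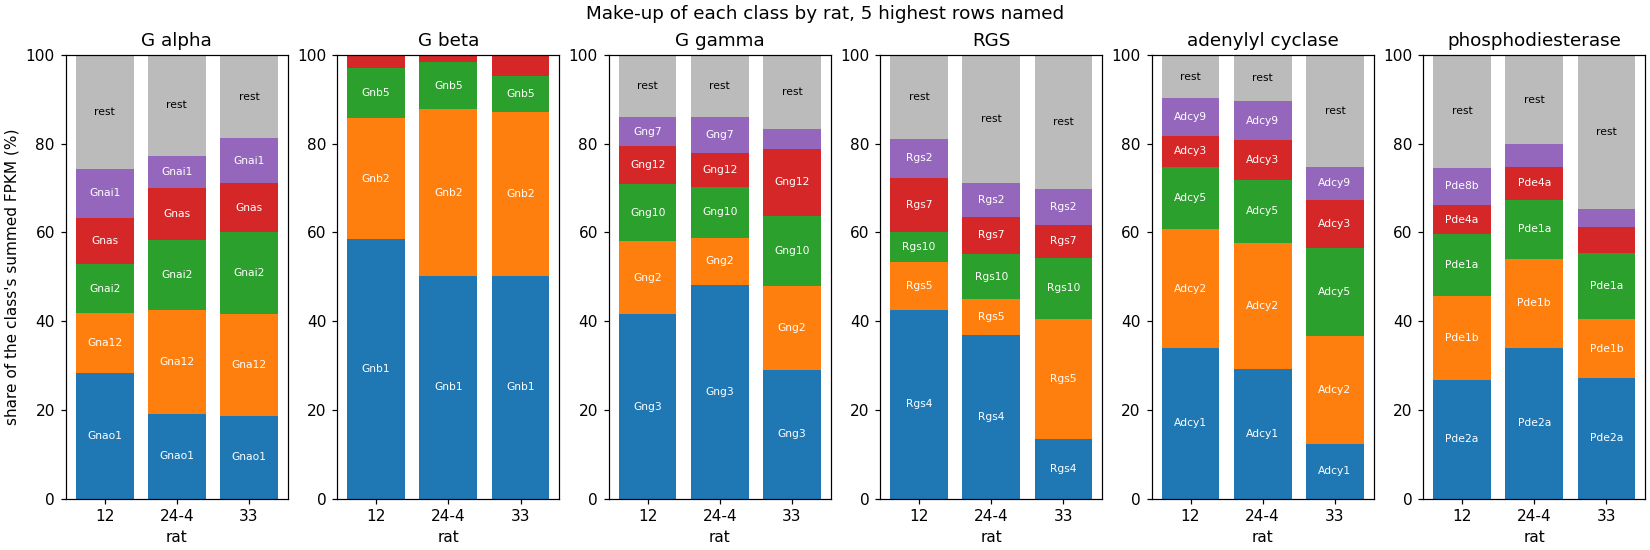
Share of each class's summed FPKM, in percent, held by its 5 highest rows in rats 12, 24-4 and 33, with the other rows in grey. Gnb1 takes 58.4%, 50.2% and 50.2% of the beta sum, and Rgs4 takes 42.6%, 36.9% and 13.4% of the RGS sum.

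Rgs4, a regulator of Gi/o and Gq signalling in cortical neurons, had the highest mean of the RGS genes and was very unequal between rats. It had 191, 131 and 36.02 FPKM, which is 42.6%, 36.9% and 13.4% of the RGS sum. Rgs5, a gene of pericytes and vascular smooth muscle, had 48.2, 28.3 and 72.6 FPKM. Rgs4 was thus above Rgs5 in rats 12 and 24-4 and below it in rat 33. The genes lie 51.8 kb apart on opposite strands of chromosome 13, with no other row between them (Rgs5 at 87966758 to 88003035, Rgs4 at 88054817 to 88061108). Rat 33 had the highest mural marker sum and the lowest glutamatergic sum. The mural sum (64.1, 56.3 and 124) was mostly Tagln (26.1, 31.7 and 77.3), and the other 5 markers summed to 37.95, 24.6 and 47.00, with Myh11 highest in rat 12 and Kcnj8 in rat 24-4. Their part in the 2 genes' levels was not tested.

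Other R4 regulators were lower. Rgs2, which acts mainly on Gq and is induced by activity, had 39.3, 26.97 and 21.9 FPKM. Rgs3 had 6.39, 9.56 and 14.04 FPKM, in the reverse order. Rgs16 had 7.67, 7.74 and 8.98 FPKM and was among the steadiest. Rgs8, known from cerebellar Purkinje cells, had 3.89, 12.3 and 8.49 FPKM, lowest in rat 12. Rgs1, known from lymphocytes and microglia, had 0.238, 0.339 and 1.80 FPKM. Rgs18, known from platelets, had 2.12, 0 and 0.868 FPKM. Rgs13 had 0.248, 0.155 and 0 FPKM. Rgs2, Rgs13, Rgs1, Rgs21 and Rgs18 lie in this order on 1 strand of chromosome 13, each at most 259 kb from the next. In that cluster the mean FPKM was at least 1 for Rgs2 alone.

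R7 regulators work as complexes with Gnb5 and a membrane anchor. Rgs7 had 54.5, 30.1 and 19.7 FPKM. Rgs6 had 16.6, 9.48 and 4.14 FPKM. Rgs7bp, the anchor, had 56.4, 34.03 and 18.3 FPKM. All were highest in rat 12 and lowest in rat 33. Rgs9, the R7 member of striatum and retina, had 3.74, 2.87 and 5.71 FPKM and was highest in rat 33. Rgs9bp, its retinal anchor, had 0.0912, 0.243 and 0.108 FPKM, which is 1, 3 and 1 fragments over a locus of 714 bp. Gnb5, given above, was also lowest in rat 33 but highest in rat 24-4, or in rat 12 with mitochondrial transcripts left out.

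The remaining regulators ranged from steady to very unequal. Rgs10, an R12 regulator of microglia and neurons, had 30.9, 36.2 and 37.2 FPKM. Rgs12 had 6.26, 7.99 and 8.67 FPKM. Rgs14, a scaffold known from hippocampal CA2 neurons, had 8.80, 26.9 and 3.95 FPKM. Rat 24-4 had 6.81 times the Rgs14 level of rat 33, the highest such ratio among the members of mean FPKM at least 1 with no listed 0. Of the RZ kind, which acts on Gz and Gi, Rgs17 had 13.4, 6.68 and 4.06 FPKM. Rgs19 had 8.83, 12.8 and 12.1 FPKM. Rgs20 had 4.74, 3.38 and 4.53 FPKM. Rgs17 was highest in rat 12 and Rgs19 lowest there. Rgs22, known from testis, had 1.95, 1.71 and 3.60 FPKM.

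Adenylyl cyclase message came mostly from Adcy1, Adcy2 and Adcy5. Adcy1, a neuronal enzyme stimulated by calcium and calmodulin, had 66.7, 67.01 and 13.9 FPKM, and 33.9%, 29.2% and 12.4% of the cyclase sum. Rats 12 and 24-4 were nearly equal, with their order turned round when mitochondrial transcripts were left out or the libraries were scaled to a common median ratio, and rat 33 was far below them. Adcy2, which beta-gamma dimers activate, had 53.1, 65.5 and 27.1 FPKM. Adcy5, inhibited by calcium and dominant in striatum, had 27.5, 32.6 and 22.1 FPKM. Adcy3, known from olfactory cilia, had 13.7, 20.3 and 12.1 FPKM. All 4 were lowest in rat 33. Adcy9 had 16.7, 20.1 and 8.15 FPKM. Adcy8, also stimulated by calcium, had 3.51, 5.53 and 2.85 FPKM. These too were lowest in rat 33 and highest in rat 24-4.

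The other membrane cyclases were highest in rat 33. Adcy6, inhibited by calcium, had 12.6, 13.9 and 17.3 FPKM. Adcy4, known from vessels, had 1.31, 1.99 and 4.19 FPKM. Adcy7, known from immune cells and platelets, had 1.02, 1.77 and 3.89 FPKM. Microglial, oligodendrocyte and astrocyte sums, given above, were likewise highest in rat 33 and lowest in rat 12. Of the 6 astrocyte markers, however, 3 were highest in rat 24-4 and 3 in rat 33. The endothelial sum (58.3, 85.5 and 78.2) was highest in rat 24-4, as was its largest marker, Cldn5 (33.6, 62.2 and 42.6). Its other 4 markers, each highest in rat 33, summed to 24.7, 23.2 and 35.6. The part of these cell types in the cyclase levels was not tested. Soluble Adcy10, regulated by bicarbonate, had 0.912, 0.917 and 0.140 FPKM. The cyclase sum was 197, 229.7 and 112, and that of the phosphodiesterases 321, 332 and 231, a ratio of 1.63, 1.44 and 2.07 for phosphodiesterases over cyclases.

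Phosphodiesterases that degrade both cAMP and cGMP stood highest. Pde2a, which cGMP activates, had 85.98, 113 and 62.9 FPKM. Pde1b, which calmodulin activates, had 60.4, 66.8 and 30.4 FPKM. Its relative Pde1a had 44.9, 43.8 and 34.7 FPKM, and Pde1b was above it in rats 12 and 24-4 only. Pde10a, abundant in striatal neurons, had 11.3, 8.50 and 5.96 FPKM. Striatal markers were in the same order (158, 140.2 and 91.6), and their part was not tested. Pde3b, which cGMP inhibits, had 4.99, 3.89 and 6.72 FPKM. Pde3a had 1.03, 0.761 and 1.77 FPKM. Pde1c had 1.12, 0.813 and 1.93 FPKM. These 3 were highest in rat 33 and lowest in rat 24-4. The 7 dual genes summed to 209.7, 237 and 144 FPKM, and the 8 cAMP-specific genes to 96.4, 81.6 and 69.1.

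Of the cAMP-specific enzymes, Pde4a had 21.2, 24.8 and 13.4 FPKM. Pde8b had 27.1, 16.8 and 9.47 FPKM. Its relative Pde8a had 9.21, 13.5 and 22.05 FPKM, in the reverse order. Pde4b, of the family that rolipram inhibits, had 16.5, 14.5 and 12.8 FPKM. Pde4d, of the same family, had 10.4, 6.17 and 4.04 FPKM. Both were highest in rat 12 and lowest in rat 33. Pde7b had 5.70, 2.62 and 3.30 FPKM. Pde7a had 4.18, 2.48 and 3.06 FPKM. Pde4c had 2.11, 0.590 and 0.995 FPKM. All 3 were highest in rat 12 and lowest in rat 24-4. Of the cGMP-specific enzymes, Pde9a had 10.4, 10.7 and 14.6 FPKM. Pde5a, the target of sildenafil, had 4.56, 2.25 and 3.03 FPKM. The photoreceptor subunit Pde6b had 0.164, 0.0209 and 0.0831 FPKM, under the 1 kb floor of 3 fragments in every rat. Pde6c, of cones, was listed at 0, 0.0224 and 0.

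Some names matched the pattern without being a G protein subunit or a catalytic phosphodiesterase. Gnb2l1, the ribosomal scaffold also known as RACK1, had 50.1, 93.3 and 80.2 FPKM in its row on chromosome 10. Its row on chromosome 12, 1025 bp long, had 0.826, 0.170 and 0.225 FPKM, which is 13, 3 and 3 fragments. Pde6d, a chaperone of prenylated proteins, had 27.6, 39.6 and 36.8 FPKM. Pde4dip, a centrosome and Golgi protein, had 29.9, 29.3 and 23.2 FPKM. Gnb1l had 2.44, 2.78 and 1.90 FPKM. None of these 3 differed by 2 times between rats. Pde6g, the inhibitory subunit of the rod phosphodiesterase, had 0.412, 0 and 2.67 FPKM. Pde6h, the cone form, had 0.281, 0.501 and 0.166 FPKM.

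Whether members varied between rats more than genes of their level was tested with limma across all 13754 genes of mean FPKM at least 1. Of the 76 members tested, 0 passed an adjusted p of 0.05, against 0.102% of all genes, and 6 passed an unadjusted p of 0.05 (7.89%), against 5.96% of all. They were Rgs14 (limma adjusted p = 0.399), Adcy1 (adjusted p = 0.416), Rgs4 (adjusted p = 0.485), Rgs6, Pde6g and Rgs7bp, the last with limma adjusted p = 0.809. Pde6g, with a mean of 1.03 FPKM and of 0.206 without rat 33, met the filter only through the rat where it was high. Its place among them follows in part from that filter. A p above the threshold does not show that levels were equal. The highest rat had at least 2 times the FPKM of the lowest in 39 members (51.3%), against 30.0% of all genes. It had at least 3 times the lowest in 12 (15.8%), against 10.4%. Both counts include genes listed at 0 in some rat, which among the members tested is Pde6g alone.

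**Figure D3:**
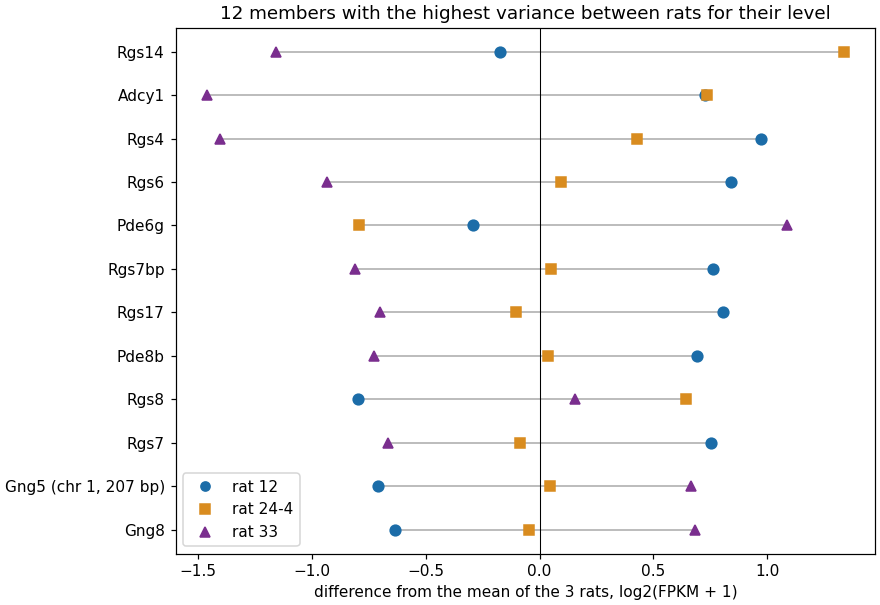
Difference of each rat from the mean of the 3 rats in log2(FPKM + 1), for the 12 members whose variance was highest for their level, from Rgs14 at the top to Gng8. Rat 33 lies lowest for Rgs14, Adcy1, Rgs4, Rgs6, Rgs7bp, Rgs17, Pde8b and Rgs7, and highest for Pde6g, Gng5 and Gng8.

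Rat 33 had the lowest value in 33 of the 76 members (43.4%), against 28.9% of all genes tested. Rat 12 was lowest in 24 (31.6%, against 37.9%) and rat 24-4 in 19 (25.0%, against 33.3%). The highest value was in rat 33 for 29 members (38.2%, against 42.0%), in rat 24-4 for 27 (35.5%, against 34.2%) and in rat 12 for 20 (26.3%, against 23.8%). Scaled to a common median ratio, 34 of the 76 members were lowest in rat 33, against 35.6% of all genes, so that the members' share stood closer to the background. With mitochondrial transcripts left out, 33 members (43.4%) were lowest in rat 33, against 29.6% of all genes.

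In the deposited FPKM, the rats' order 24-4, 12, 33 had the most members, 20 (26.3%, against 17.7% of all genes). It held Gnb1, Gnb5, Gng3, Gng7, Gng13, Gnaz, Gnal, Adcy1, Adcy2, Adcy5, Pde1b, Pde2a and Pde4a, among others. With mitochondrial transcripts left out, Gnb1, Gnb1l, Gnb5, Adcy1 and Pde1b moved to the order 12, 24-4, 33. That order then had the most members, 18 (23.7%, against 15.7% of all genes), and 24-4, 12, 33 had 15 (19.7%, against 13.9%). The share of all genes highest in rat 24-4 was then 23.2%, and it was 34.2% in the deposited FPKM. Scaled to a common median ratio, the order 24-4, 12, 33 had 18 members (23.7%, against 20.3%), closer to the background. The order 12, 24-4, 33 had 16 under that scaling (21.1%, against 15.3%). In the deposited FPKM, the order 12, 24-4, 33 had 13 members (17.1%, against 11.2%), with Rgs2, Rgs4, Rgs6, Rgs7, Rgs7bp, Rgs17, Pde4d, Pde8b and Pde10a among them. The order 33, 24-4, 12 had 17 (22.4%, against 21.3%), such as Gna12, Gnai2, Gng10, Gng12, Rgs3 and Pde8a. The order 33, 12, 24-4 had 12 (15.8%, against 20.7%), such as Gnai1, Gng2, Rgs5 and Rgs9. Both remaining orders had 7 members each (9.21%, against 12.6% for 12, 33, 24-4 and 16.6% for 24-4, 33, 12). Neuronal marker sums were lowest, and microglial and oligodendrocyte sums highest, in rat 33. Choroid plexus markers (3375, 131 and 13378 in sum) were all 8 highest in rat 33 and lowest in rat 24-4. The part of these cell types in the orders was not tested.

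**Figure D4:**
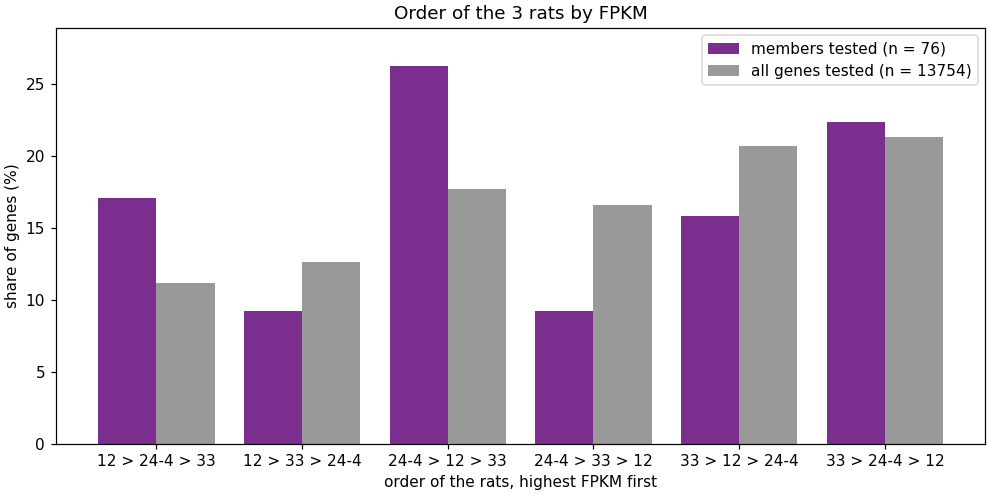
Share of genes, in percent, with each order of the 3 rats by FPKM, for the 76 members tested and all 13754 genes tested. In the deposited FPKM shown, orders that end in rat 33 hold 17.1% and 26.3% of members, against 11.2% and 17.7% of all genes.

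Differences between paired members within a rat, on the log2(FPKM + 1) scale that understates those of low genes, had 1 sign in 15 of 18 pairs. Gnas (the higher row) minus Gnal was 3.18, 3.16 and 3.56. Gng7 minus Gng13 was 0.49, 0.67 and 0.86. Pde2a minus Pde10a was 2.82, 3.58 and 3.20. Their SD over the rats was 0.23, 0.19 and 0.38 in turn. Adcy1 minus Adcy8, both calcium-stimulated, was 3.91, 3.38 and 1.95. Rgs7 minus Rgs9 was 3.55, 3.00 and 1.63. Gnao1 minus Gnai2 was 1.33, 0.28 and 0.01. Each of these was smallest in rat 33. The mean difference was 0.65 ± 0.38 for Gnb1 minus Gnb2, 1.35 ± 0.78 for Gng3 minus Gng2, 0.73 ± 0.39 for Adcy2 minus Adcy5 and 1.06 ± 0.42 for Pde4b minus Pde4d.

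The sign was mixed in 3 pairs. Rgs4 minus Rgs5 was 1.97, 2.17 and -0.99. Gnaq minus Gna11 was 0.69, -0.62 and 0.20. Pde1b minus Pde1a was 0.42, 0.60 and -0.19. The exact two-sided sign-flip permutation test gave p = 0.25 for each of the 15 pairs of 1 sign, the smallest value that 3 rats allow. Adjusted by Benjamini-Hochberg over the 18 pairs this was 0.3, so no pair could pass 0.05.

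Alpha subunit genes with a sensory or blood cell relative as neighbour were the higher of their pair in every rat. Gnai2 and Gnat1 lie 41.99 kb apart on chromosome 8 and differed by 6.48 ± 0.55. Gnai3 and Gnat2 lie 6.77 kb apart on chromosome 2 and differed by 3.57 ± 0.27. Gna11 and Gna15 lie 6.89 kb apart on chromosome 7 and differed by 3.80 ± 0.66. On the FPKM scale Gnai3 was 95.8, 136 and 17.7 times Gnat2, so the small SD of that pair belongs to the pseudocount scale, and with a pseudocount of 0.1 the mean difference was 5.29. No other row lies between Gnai3 and Gnat2 or between Gna11 and Gna15, and 1 row lies between Gnai2 and Gnat1. Gnaq and Gna14, both on chromosome 1, differed by 3.68 ± 1.07, and Rgs2 and Rgs1 by 4.15 ± 1.02.

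**Figure D5:**
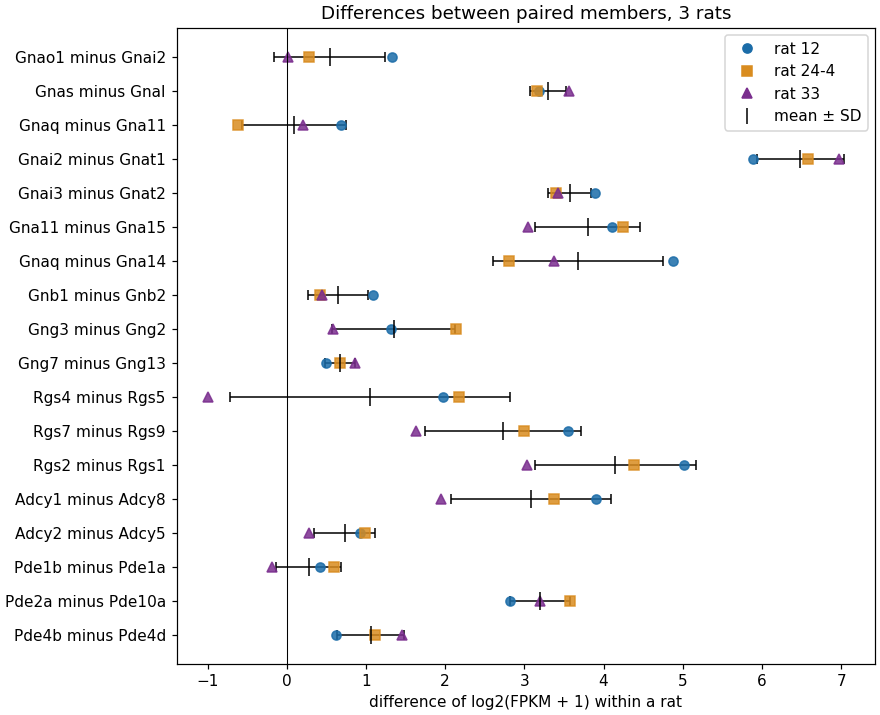
Difference of log2(FPKM + 1) between the members of 18 pairs, with 1 symbol per rat and the mean ± SD of the 3 rats in black. Rgs4 minus Rgs5, Gnaq minus Gna11 and Pde1b minus Pde1a have rats on both sides of 0, and the other 15 lie above it.

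Other genes of the pathway were read from a list of 34, of which 33 were measured and tested. By limma 0 passed an adjusted p of 0.05, against 0.102% of all genes, and 7 passed an unadjusted p of 0.05, against 5.96%. Kcnj9, a subunit of the potassium channel that beta-gamma dimers open, had 50.6, 32.2 and 9.87 FPKM. Kcnj3, of the same channel, had 54.9, 21.03 and 13.5 FPKM. Plcb4, a phospholipase C that Gq activates, had 17.4, 3.14 and 4.10 FPKM. The others were Akap5, an anchor of the cAMP-dependent kinase, Prkar2b, a regulatory subunit of that kinase, and the guanylyl cyclase subunits Gucy1a3 and Gucy1b3. All 7 were highest in rat 12 in the deposited FPKM, as were 15 of the 33 genes with these included, against 23.8% of all genes. That share of all genes was 35.4% with mitochondrial transcripts left out and 31.2% under median-ratio scaling. Counts of the 33 genes under those scalings are not given here. Prkar2b had 30.01, 17.2 and 9.48 FPKM and Gucy1b3 had 76.7, 50.9 and 24.8 FPKM. Of the 33 genes, 18 were lowest in rat 33 in the deposited FPKM, against 28.9% of all genes. Prkaca, a catalytic subunit of the kinase, had 64.1, 85.6 and 54.6 FPKM and its regulatory subunit Prkar1a 219.8, 219.5 and 192 FPKM.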

How the data were processed

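Libraries from motor cortex of 3 rats, 1 each, were deposited as FPKM. The series' design text says that fragments were counted for each gene and normalized, and that FPKM followed by script. The submitters' processing notes name HISAT2 2.0.4, StringTie 1.3.0 and build Rnor_6.0. Which normalization was used, and whether strand counted, is not given in the sources used here. Depth was estimated from low values at loci up to 400 bp, of which 92.4%, 92.1% and 92.8% were whole fragments within 0.02 in rats 12, 24-4 and 33.

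The values were transformed to log2(FPKM + 1). For each gene of mean FPKM at least 1, limma 3.58.1 (R 4.3.3) fitted an intercept with a trended, robust prior. The residual variance over the prior variance was compared with an F distribution, one-sided, with Benjamini-Hochberg adjustment across every gene fitted. The procedure was tested on data simulated from its own fitted means and prior. Its power in the real data is not known from that. Pairs were compared by exact sign flips over rats. The limma p-values measure only the spread between these 3 rats, relative to that of genes of like level. The sign-flip p-values only set a mean difference against its sign-flipped values in these 3 rats. The remaining work used Python (3.11.15) with numpy (2.4.6), pandas (2.3.3) and scipy (1.17.1). Members, lists, pairs and tests were chosen with earlier results of these data known. Values per rat were to be given for the 2 highest members of each subfamily, the 12 of highest variance for their level and the paired genes, and other members could be named with their value. One of the marker lists is not reported here. For names in 2 rows, pairs used the row of higher mean.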

Additional observations from a re-analysis of the deposited data

How the results depend on the processing

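By limma 0 members passed the adjusted threshold with a pseudocount of 0.1, a minimum mean FPKM of 0.1, no filter, a prior that was not robust, mitochondrial transcripts left out, or median-ratio scaling, the last chosen after seeing the data. Leaving out 1 rat gave 0 to 2 members: without rat 12, Rgs14 (limma adjusted p = 0.0187) and Adcy1 (limma adjusted p = 0.0499) passed, together with 101 of all 13754 genes counting them. That prior had 42.1 degrees of freedom, against 7.96 with all rats. Gnaq minus Gna11, 0.09 with all rats, was -0.21 to 0.45 with 1 rat left out, and negative without rat 12. The other 17 pair differences kept their sign under every alternative. Rgs4 minus Rgs5, 1.05 with all rats, was 0.59, 0.49 and 2.07 without rats 12, 24-4 and 33, and Pde1b minus Pde1a, 0.28, was 0.21, 0.12 and 0.51.

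Leaving out mitochondrial transcripts raised the median of all genes by 0.41, 0.20 and 0.31 (log2) in rats 12, 24-4 and 33. The order of rats was then kept by 65 of 76 members, and by 70 under median-ratio scaling. Depth limits rows near or under the 1 kb floor of 3 fragments, such as Gnat1, Pde6b and Rgs9bp. No paired analysis was possible because all rats are in 1 group.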
